A study of Mus musculus with 4 samples.

Results

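The 33 genes described here encode the route of glucose carbon in the cell: 2 glucose transporters, 3 hexokinases, 7 enzymes of upper and 7 of lower glycolysis, 2 bifunctional kinase-phosphatases that regulate phosphofructokinase, 4 proteins of lactate formation and export, 3 proteins that govern pyruvate entry into mitochondria and 5 enzymes of the pentose phosphate pathway. They were picked out by symbol, through current symbols, older synonyms such as Pkm2 for Pkm and probe accessions. The list itself was made with earlier results of these data known. All 33 were found on the array, with 59 of its 41174 probes, among 27597 genes in all. Each gene was represented by its brightest probe, and every one of the 33 was well above background on all 4 arrays, so none was lost to a filter on dim signals.

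The study used Agilent mouse arrays with 1 dye and 1 array per group, on CD4+ T cells from spleen and lymph nodes of Balb/C mice, and asked about Eos (Ikzf4), a zinc-finger partner of the transcription factor Foxp3. The si-Eos group was natural regulatory T cells (Treg, CD4+CD25+) transduced with a lentivirus carrying a short hairpin RNA against Eos. In the si-RL group the same kind of cell carried a hairpin against Renilla luciferase, the control. Cells of these 2 groups were kept for 60 h in medium with human IL-2 and sorted for the GFP reporter of the virus. The Treg group (CD4+CD25+) and the naive T group (CD4+CD25-CD62Lhi) were sorted fresh, with neither virus nor culture. No drug and no engineered allele is named for any group. The number of mice behind a sample, their age and sex, and the number of hairpin sequences are not given in the sources used here.

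Glycolysis splits glucose into pyruvate in the cytosol and yields ATP without oxygen, and lactate dehydrogenase then turns pyruvate into lactate, which regenerates the NAD+ that the pathway needs. The pentose phosphate pathway branches off at glucose 6-phosphate and supplies NADPH and ribose for nucleotides. In T cells, activation through the antigen receptor and growth-promoting cytokines is known to raise glucose uptake and glycolysis, with Myc and HIF-1 as well-studied activators of these genes, while resting naive T cells and resting Treg rely more on oxidation in mitochondria.

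The start regions of 5 members are shown because the first 4 belong to the genes whose signal differed most between the cultured and the fresh samples and have a single promoter window, and the last belongs to Eno3, the member with the widest difference between the hairpin arrays. Each runs 5′ to 3′ on the strand of the gene, with 250 bases before and 50 from the annotated start, from RefSeq on mouse build GRCm38.p6: Slc16a3 lies at chr11:120948817-120949116 (plus strand), Hk2 at chr6:82774405-82774704 (minus), Tpi1 at chr6:124814109-124814408 (minus), Pgk1 at chrX:106186850-106187149 (plus) and Eno3 at chr11:70656926-70657225 (plus). Capitals mark ACGTG or GCGTG, the cores of the hypoxia response element bound by HIF-1, read on either strand, so that CACGT and CACGC are the same cores on the opposite strand.
Slc16a3: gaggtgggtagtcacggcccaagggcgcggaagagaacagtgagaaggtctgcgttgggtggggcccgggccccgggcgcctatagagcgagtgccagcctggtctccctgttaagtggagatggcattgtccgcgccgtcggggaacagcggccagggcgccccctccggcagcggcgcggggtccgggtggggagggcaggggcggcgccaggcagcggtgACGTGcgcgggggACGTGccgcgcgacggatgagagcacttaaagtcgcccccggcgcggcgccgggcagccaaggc
Hk2: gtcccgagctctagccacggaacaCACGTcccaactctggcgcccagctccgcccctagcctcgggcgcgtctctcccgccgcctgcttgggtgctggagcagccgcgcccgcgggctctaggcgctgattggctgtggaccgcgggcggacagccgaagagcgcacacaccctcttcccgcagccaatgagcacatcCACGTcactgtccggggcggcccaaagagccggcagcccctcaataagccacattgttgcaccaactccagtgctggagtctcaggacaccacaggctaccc
Tpi1: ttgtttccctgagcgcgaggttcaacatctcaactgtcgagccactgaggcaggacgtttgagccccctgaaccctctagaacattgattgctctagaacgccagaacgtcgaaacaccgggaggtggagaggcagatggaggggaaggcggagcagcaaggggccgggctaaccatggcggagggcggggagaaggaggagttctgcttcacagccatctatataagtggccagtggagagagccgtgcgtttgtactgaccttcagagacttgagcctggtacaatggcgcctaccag
Pgk1: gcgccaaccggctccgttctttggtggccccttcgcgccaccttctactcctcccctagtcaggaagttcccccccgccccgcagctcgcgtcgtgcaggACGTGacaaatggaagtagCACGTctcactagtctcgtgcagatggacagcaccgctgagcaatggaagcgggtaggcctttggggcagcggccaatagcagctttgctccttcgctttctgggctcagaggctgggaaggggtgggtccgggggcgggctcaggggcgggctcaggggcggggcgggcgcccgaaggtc
Eno3: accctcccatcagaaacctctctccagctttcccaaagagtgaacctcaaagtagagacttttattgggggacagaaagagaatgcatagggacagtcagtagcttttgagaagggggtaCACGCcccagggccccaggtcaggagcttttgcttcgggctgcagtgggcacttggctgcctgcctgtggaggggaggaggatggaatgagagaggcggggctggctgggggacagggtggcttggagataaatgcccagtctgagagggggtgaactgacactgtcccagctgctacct
Slc16a3, Hk2 and Pgk1 each held 2 cores, Eno3 held 1 and Tpi1 held 0. A promoter window was given for 32 of the 33 members, and for 10 of these with several windows the first listed was read. ACGTG or GCGTG stood in 26 of the 32 windows (81.2%), against 11836 of 27025 windows of all genes (43.8%). The median GC content was 60.8% in the members' windows and 52.7% in all windows, and both cores hold CG, so base composition moved with this count and its part was not tested. CACGTG, the E-box of Myc and its relatives, which contains ACGTG, stood in 4 of the 32 (12.5%) and in 7.24% of all. These matches are letters in a window, not measured binding.

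Signals are given as scaled signal, the processed intensity divided by the 75th percentile of its array, so that 1 is the level of that percentile. Values of single genes compare 1 probe between arrays, not one gene with another, apart from naming the dimmest signals. Marker sums add the signals of different genes, so bright probes weigh most in them. Differences are log2 of the ratio of 2 arrays, and a gene counted as higher or lower where the ratio was at least 2-fold. The scanner error of a member's log2 difference lay between 0.20 and 0.25. It is technical only: with 1 array per group no spread between cultures or mice exists, so the differences stand without tests or p-values.

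The 4 arrays lay on 1 slide in 1 scan, their 75th percentiles were between 262 and 392 intensity units, and between 64.0% and 68.3% of the probes were well above background. Ikzf4, the targeted gene, went against its label: its scaled signal was 0.779 on the array labelled si-Eos, 0.409 on the array labelled si-RL, 0.926 in Treg and 0.636 in naive T cells. The other Ikzf4 probes had log2 differences of 1.96 and 1.19 between the hairpin arrays, in the same direction as the 0.93 of the probe used. The regions covered by these probes and by the hairpin were not compared. If the 2 hairpin labels were exchanged, every sign between these arrays given here would turn, whereas what both cultured arrays share against both fresh arrays would not change. The summed scaled signal of 5 Treg markers, Foxp3 among them, was 74.9 on the array labelled si-Eos, 10.8 on the array labelled si-RL, 56.4 in Treg and 3.67 in naive T cells. For 5 markers of naive T cells the sums were 45.7, 136, 58.5 and 164 in the same order, and for 6 T cell markers 230, 156, 253 and 289. Sums of the markers of B cells, myeloid cells, NK and CD8 T cells, and red cells with platelets lay between 0.248 and 5.74 on every array. Of the defining markers, Alas2 was above background on no array, and Itgam, Ncr1 and the platelet gene Pf4 were above it on 1 array each. For Pf4 that was the array labelled si-Eos, at 0.702, against 0.0371 on the array labelled si-RL, 0.0257 in Treg and 0.0239 in naive T cells. In such bulk RNA, fewer cells of a type and less RNA per cell cannot be told apart. The part of these marker differences in the results below was not tested.

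The 33 genes differed mainly between the cultured and the fresh samples. In 14 of the 33 genes the lower of the 2 cultured arrays was at least 2-fold above the higher of the 2 fresh arrays, and in 0 was the opposite seen. Over all 16449 genes measured on the 4 arrays, the same patterns held for 2.04% and 2.35%. The 14 genes were Slc2a1, Hk2, Pfkl, Pfkp, Aldoa, Aldoc, Tpi1, Pgk1, Pgam1, Eno1, Eno2, Pkm, Ldha and Slc16a3, which between them cover glucose uptake, most steps of glycolysis and lactate export. None of the 3 pyruvate-entry genes and none of the 5 pentose phosphate genes was among them. Without the 2-fold limit, both cultured arrays were above both fresh arrays at the probe used for 23 of 33 members, against a background of 23.4%. They were below for 3 members, Hk3, G6pdx and Taldo1, against a background of 22.2%. The gap was smaller than the scanner error for Slc2a3 (0.07), Pfkfb3 (0.03), Pgd (0.18), Pgls (0.17) and G6pdx (-0.05). Virus, culture, IL-2 and sorting for GFP differed together between the cultured and fresh samples and cannot be told apart. The map of levels by array shows where each member stood.

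**Figure D1:**
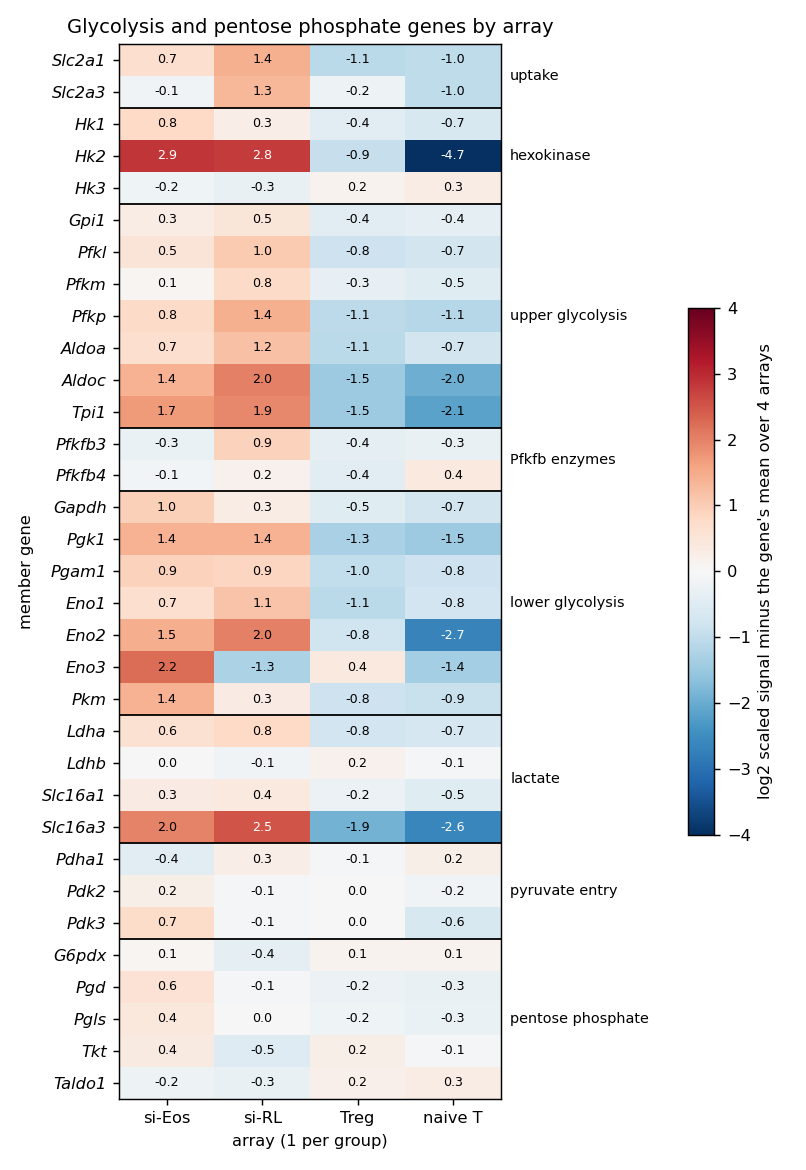
Scaled signal of each of the 33 members (rows, by role) on the 4 arrays, drawn as the log2 difference from the gene's mean over the 4 arrays. Most glycolytic rows are high on both cultured arrays and low on both fresh arrays. Exceptions are Hk3, Pfkfb4, Eno3 and Ldhb, and also Slc2a3 and Pfkfb3, whose level on the array labelled si-Eos is close to that of a fresh array. No pyruvate-entry or pentose phosphate gene has a step of 2-fold between cultured and fresh arrays.

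Set against fresh Treg, the array labelled si-Eos had 17 of 33 members at least 2-fold higher, where 8.84% of 17899 measured genes were higher, and 0 members lower, where 10.0% of genes were lower. Its median member difference was 1.23, against 0.06 for all genes. On the array labelled si-RL, 17 of 33 members were at least 2-fold higher than in Treg, against 7.89% of 17084 genes. On that array 1 member, Eno3, was at least 2-fold lower, against 8.21% of genes. Its median member difference was 1.10, against -0.01 for all genes. These comparisons share the Treg array, so their likeness is partly built in. Counted over the 25 genes of uptake, glycolysis and lactate, the medians were 1.73 for the array labelled si-Eos and 1.57 for the array labelled si-RL.

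**Figure D2:**
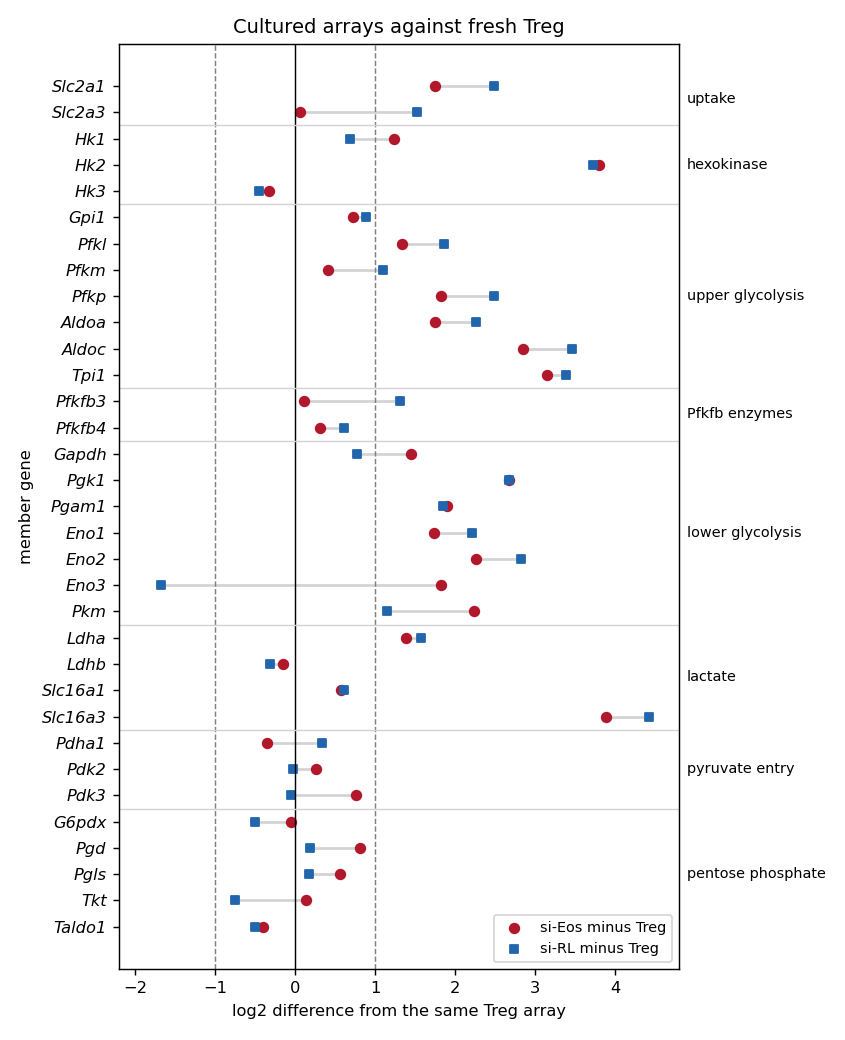
Log2 difference of each member from Treg on the array labelled si-Eos and on the array labelled si-RL, by role, with dashed lines at the 2-fold limits. Most glycolytic genes lie beyond the upper line in at least 1 array, and Eno3 is the only member beyond the upper line in one and the lower line in the other.

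Both glucose transporters had their highest signal on the array labelled si-RL. Slc2a1 (GLUT1, the main transporter of proliferating T cells) had 17.9 on the array labelled si-Eos and 29.8 on the array labelled si-RL, against 5.34 in Treg and 5.60 in naive T cells. Slc2a3 (GLUT3, a high-affinity transporter) had 5.84 and 16.1 on the same arrays, against 5.59 in Treg and 3.19 in naive T cells. Slc2a1 was thus at least 2-fold above Treg on both cultured arrays, with differences of 1.74 on the array labelled si-Eos and 2.48 on the array labelled si-RL. The Slc2a3 differences from Treg were 0.07 and 1.52. As the mean over probes, the Slc2a3 call on the array labelled si-RL ended, and 1 of the 2 transporters passed 2-fold there. A second Slc2a3 probe put the array labelled si-Eos lower than Treg by its difference of -1.66, and the array labelled si-RL at 0.47, so the step from Treg for this gene differed between probes. Both probes had Slc2a3 lower on the array labelled si-Eos than in that labelled si-RL.

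Hexokinases trap glucose in the cell as glucose 6-phosphate, and the 3 members behaved unlike each other. Hk2, the inducible form, had a scaled signal of 16.3 on the array labelled si-Eos, 15.4 on the array labelled si-RL, 1.17 in Treg and 0.0848 in naive T cells. It was therefore at about the same level on the hairpin arrays, 14.0-fold and 13.2-fold above Treg, and 13.8-fold above naive T cells in Treg. Its probe lies at chr6:82690720-82690779 of mouse build mm8, the build of the array files. Hk1, the form bound to mitochondria in most tissues, had 25.7, 17.6, 10.9 and 9.33 in the same order of arrays. At this probe it was 1.23 above Treg on the array labelled si-Eos, past the 2-fold limit, and 0.69 on the array labelled si-RL. The call ended under scaling to spike-in probes (0.85) and as the mean over its probes (0.95). Its 4 other measured probes had differences from Treg of 0.74, 1.10, 0.47 and 1.23 on the array labelled si-Eos and, in the same order, 1.49, 1.46, 1.15 and 0.18 on the array labelled si-RL, so which hairpin array passed the limit depended on the probe. Hk3, a form known mainly from myeloid cells, stayed between 0.112 and 0.171 on all arrays, a dim signal of 29.4 to 60.1 intensity units. Under the normexp background correction 1 of the 3 hexokinases was at least 2-fold lower than in Treg on each cultured array. The differences from Treg of the 3 genes spanned 4.13 log2 units on the array labelled si-Eos and 4.17 on the array labelled si-RL.

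All 7 upper glycolytic genes were higher at the probes used on both cultured arrays than in Treg. Medians were 1.75 on the array labelled si-Eos and 2.26 on the array labelled si-RL. At least 2-fold differences were counted for 5 of the 7 on the array labelled si-Eos and for 6 on the array labelled si-RL. Tpi1 (triosephosphate isomerase, which interconverts the 2 triose phosphates) had a signal of 45.9 on the array labelled si-Eos, 54.2 on the array labelled si-RL, 5.16 in Treg and 3.22 in naive T cells. Aldoc, the aldolase known mainly from brain, had 2.35 and 3.59 on the hairpin arrays, against 0.326 in Treg and 0.228 in naive T cells. Aldoa, the broadly expressed aldolase, had 266 and 380, against 79.4 in Treg and 101 in naive T cells. Both aldolases were thus well above both fresh samples, and a second probe of each had differences of the same sign from Treg. Phosphofructokinase, the committed step, is encoded by Pfkp, Pfkl and Pfkm. Pfkp had 10.7 on the array labelled si-Eos and 17.0 on the array labelled si-RL, against 3.03 in Treg and 2.85 in naive T cells. Its differences from Treg were 1.82 and 2.49, those of Pfkl 1.33 and 1.87, and those of Pfkm 0.41 and 1.10. Under scaling to spike-in probes, Pfkl on the array labelled si-Eos (0.95) and Pfkm on the array labelled si-RL (0.76) no longer reached 2-fold. Gpi1 (glucose phosphate isomerase) was above Treg by 0.72 and 0.89, short of the limit in both. A second, much dimmer Gpi1 probe had differences of -0.40 and 0.45, so its sign on the array labelled si-Eos depended on the probe.

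Pfkfb3 and Pfkfb4 make and remove the small sugar phosphate that activates phosphofructokinase. Pfkfb3 had 3.13 on the array labelled si-Eos, 7.22 on the array labelled si-RL, 2.91 in Treg and 3.08 in naive T cells. At this probe it stood out on 1 array only, the array labelled si-RL, at 1.31 above Treg. Its other probes had differences of 2.89 and 1.47 there, and the call ended under scaling to spike-in probes (0.98). On the array labelled si-Eos these other probes had 0.87 and 0.10, in the same order. Pfkfb4 ranged between 0.912 in Treg and 1.60 in naive T cells, and reached 2-fold in no comparison against Treg.

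Lower glycolysis, which yields ATP and pyruvate, had all 7 genes at least 2-fold above Treg on the array labelled si-Eos, and 5 higher with 1 lower on the array labelled si-RL. Pgk1 (phosphoglycerate kinase, the first ATP-forming step) had 105 on the array labelled si-Eos and 106 on the array labelled si-RL, against 16.5 in Treg and 14.7 in naive T cells. This is 6.38-fold and 6.40-fold above Treg, with no more than scanner error between the hairpin arrays. Pgam1, phosphoglycerate mutase, had 44.6 and 43.1 there, against 12.0 in Treg and 13.3 in naive T cells, a similarly even pair. Gapdh, which forms NADH, had 58.0 on the array labelled si-Eos, 36.3 on the array labelled si-RL, 21.3 in Treg and 17.8 in naive T cells. It was 1.45 above Treg on the array labelled si-Eos and 0.77 on the array labelled si-RL. Pkm, the pyruvate kinase of most tissues, had 46.8 on the array labelled si-Eos and 22.0 on the array labelled si-RL, against 9.94 in Treg and 9.52 in naive T cells. On the array labelled si-RL the Pkm difference from Treg of 1.15 became 0.81 under scaling to spike-in probes and 0.74 as the mean over its probes, below the 2-fold limit.

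The 3 enolases, which form phosphoenolpyruvate, went separate ways. Eno1, the widely expressed form, had 3.67 on the array labelled si-Eos and 5.10 on the array labelled si-RL, against 1.10 in Treg and 1.37 in naive T cells. Eno2, known as the neuronal form, had 1.17 and 1.72 on the hairpin arrays, against 0.242 in Treg and 0.0671 in naive T cells. On the array labelled si-Eos, the Eno2 difference from Treg of 2.27 became 0.82 with the normexp background correction. Eno3, known as the muscle form, had 28.2 on the array labelled si-Eos, 2.50 on the array labelled si-RL, 7.98 in Treg and 2.35 in naive T cells. Eno1 and Eno2 were thus high on both cultured arrays, whereas Eno3 was high on the array labelled si-Eos and in Treg and low on the others. Against Treg, Eno3 was 3.54-fold higher on the array labelled si-Eos and 3.20-fold lower on the array labelled si-RL. The Eno3 probe, its only one, lies at chr11:70478622-70478681 of mm8. Foxp3 had 8.26 on the array labelled si-Eos, 0.420 on the array labelled si-RL, 4.54 in Treg and 0.213 in naive T cells, the same order of arrays as Eno3. Whether the 2 genes are linked was not tested.

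**Figure D3:**
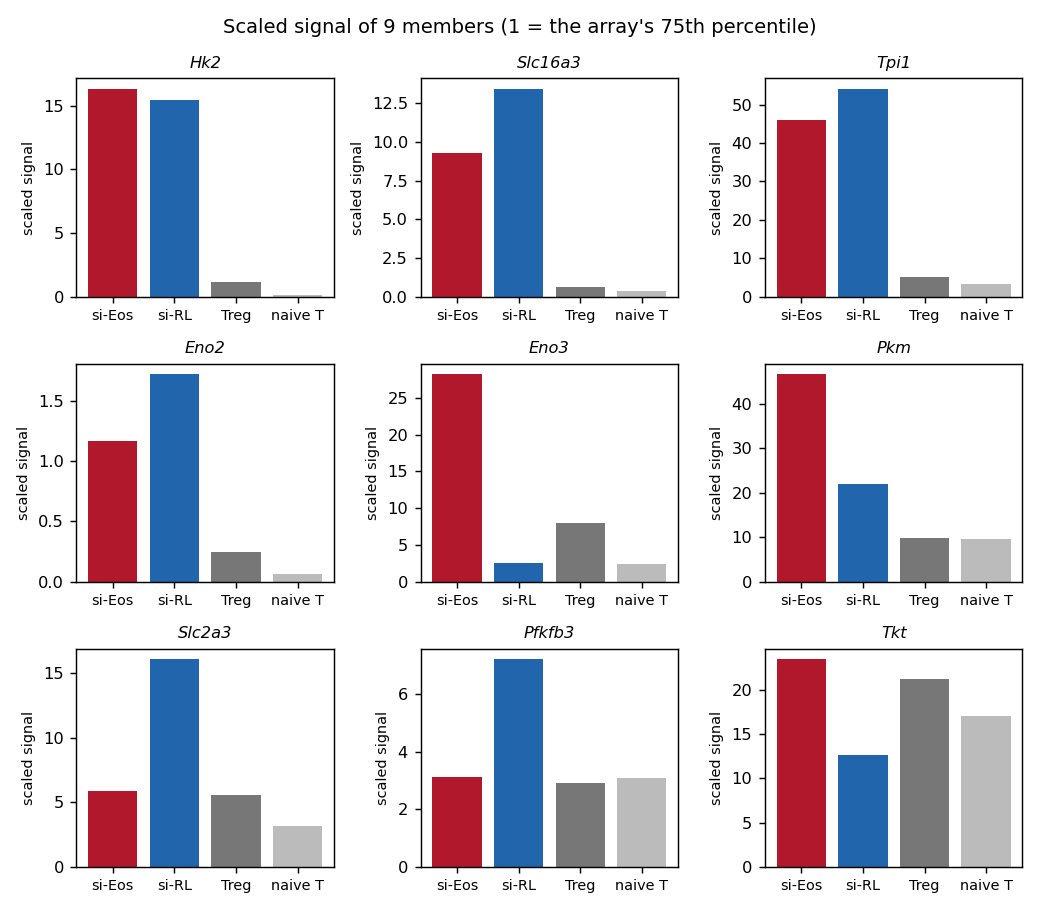
Scaled signal (linear axis starting at 0, its own scale in each panel) of Hk2, Slc16a3, Tpi1, Eno2, Eno3, Pkm, Slc2a3, Pfkfb3 and Tkt on the 4 arrays, 1 bar per array and no error bars. Hk2, Slc16a3, Tpi1 and Eno2 are high on both cultured arrays, Slc2a3 and Pfkfb3 peak on the array labelled si-RL, and Eno3 is high on the array labelled si-Eos and in Treg.

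Of the lactate genes, the exporter differed most. Slc16a3 (MCT4, which carries lactate out of glycolytic cells) had 9.28 on the array labelled si-Eos and 13.4 on the array labelled si-RL, against 0.628 in Treg and 0.378 in naive T cells. It was 14.8-fold and 21.4-fold above Treg, and its gap of 3.89 between the lower cultured and the higher fresh array was the widest of the 33 members. Its probe lies at chr11:120774799-120774858 of mm8. Slc16a1 (MCT1, which moves lactate either way) had 4.33 and 4.44 on the hairpin arrays, against 2.91 in Treg and 2.43 in naive T cells, under 2-fold throughout. Its other probes had differences from Treg of -0.48 and 0.48 on the array labelled si-Eos. On the array labelled si-RL they had 0.03 and 0.42, so the step depended on the probe. Ldha, the subunit that favours lactate formation, had 153 on the array labelled si-Eos and 173 on the array labelled si-RL, against 58.3 in Treg and 62.9 in naive T cells. Ldhb, the subunit that favours pyruvate, stayed between 8.77 and 10.9 on the 4 arrays. The difference of Ldha from Treg was therefore larger than that of Ldhb, by 1.55 log2 units on the array labelled si-Eos and 1.88 on the array labelled si-RL.

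The 3 genes of pyruvate entry reached 2-fold in no comparison at the probes used. Pdha1 (the catalytic alpha subunit of pyruvate dehydrogenase) had 6.17 on the array labelled si-Eos, 9.93 on the array labelled si-RL, 7.85 in Treg and 9.74 in naive T cells. Pdk2, a kinase that inactivates pyruvate dehydrogenase, stayed between 0.205 and 0.269. Pdk3, another such kinase, had 1.75 on the array labelled si-Eos, 1.0 on the array labelled si-RL, 1.04 in Treg and 0.670 in naive T cells. Its second probe differed more, at 1.54 between the hairpin arrays and -1.33 for the array labelled si-RL against Treg. As the mean over its probes Pdk3 passed 2-fold higher on the array labelled si-Eos than on that labelled si-RL.

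None of the 5 pentose phosphate genes had a 2-fold step between cultured and fresh samples, although Pgd and Pgls had both cultured arrays above both fresh arrays by less. G6pdx (glucose 6-phosphate dehydrogenase, the NADPH-forming entry step) had 3.20 on the array labelled si-Eos, 2.34 on the array labelled si-RL, 3.31 in Treg and 3.30 in naive T cells. Pgd, the other NADPH-forming enzyme of the pathway, had 5.01 and 3.25 on the hairpin arrays, against 2.86 in Treg and 2.77 in naive T cells. Tkt (transketolase, of the non-oxidative branch) had 23.4 on the array labelled si-Eos, 12.7 on the array labelled si-RL, 21.2 in Treg and 17.0 in naive T cells. These stayed within 2-fold of Treg, and so did Pgls, which had differences from Treg of 0.56 on the array labelled si-Eos and 0.17 on the array labelled si-RL. Taldo1 (transaldolase) had 28.5 and 26.5, against 37.6 in Treg and 40.1 in naive T cells. The median of the 5 against Treg was 0.14 on the array labelled si-Eos and -0.50 on the array labelled si-RL. The first of these signs turned under quantile normalization (-0.01), spike-in scaling (-0.25) and the mean over probes (-0.05), and the other under normexp (0.00), so no direction is given for the group against Treg. Under spike-in scaling Tkt passed 2-fold lower on the array labelled si-RL, and under normexp 1 of the 5 genes passed 2-fold higher on the array labelled si-Eos.

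Between the hairpin arrays, few of the 33 genes differed by 2-fold. On the array labelled si-Eos, Eno3 and Pkm were at least 2-fold higher than in that labelled si-RL, 2 of 33 members where 10.7% of 17085 genes were higher. Slc2a3 and Pfkfb3 were at least 2-fold lower, 2 of 33 where 10.1% of genes were lower. The members' shares were 6.06% each way, below the shares of all genes, and their median difference was -0.04, against 0.04 for all genes. Eno3 was 11.3-fold higher (log2 difference 3.50 ± 0.20, scanner error) on the array labelled si-Eos, and Pkm was 2.12-fold higher (1.09). A second Pkm probe had a difference of 1.25 and another, much dimmer one 0.29. The Pkm call lies at the limit: it became 0.99 under quantile normalization and 0.88 as the mean over its probes. The differences were -1.46 for Slc2a3, with -2.14 at its second probe, and -1.20 for Pfkfb3, with -2.02 and -1.37 at its other probes.

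Within the roles, smaller differences ran in different directions between the hairpin arrays. All 7 upper glycolytic genes had lower signal on the array labelled si-Eos than in that labelled si-RL, with a median of -0.53 and a range between -0.68 and -0.16. The sign was negative for all 7 under each of the 3 other scalings and under normexp. All 5 pentose phosphate genes had higher signal there, with a median of 0.45 and a range between 0.10 and 0.89, and 4 of 5 did so under quantile normalization. None of these 12 genes reached 2-fold at the probe used. As the mean over its probes 1 of them, Pfkp, passed 2-fold lower, with -1.19 and -1.28 at its other probes and -0.67 at the probe used. The median gap between another probe of a member and the probe used was 0.53 in this comparison, a size comparable with these differences. The 3 hexokinases differed by 0.08 to 0.55, and for Hk1 the sign depended on the probe, with -0.75, -0.36, -0.68 and 1.04 at its other probes. Lower glycolysis had a median of 0.05, with 4 genes higher and 3 lower, with Pgk1 close to 0 and Eno1 at -0.47.

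**Figure D4:**
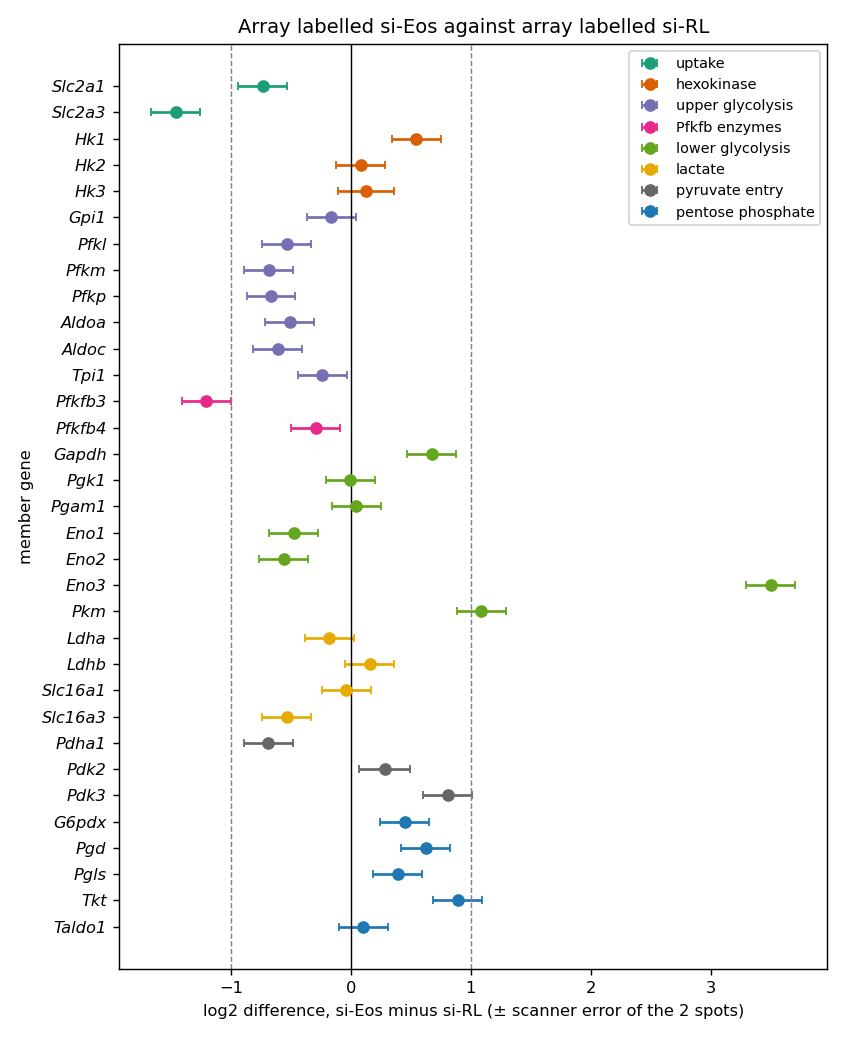
Log2 difference of each member, the array labelled si-Eos minus the array labelled si-RL, coloured by role, with bars for the scanner error of the 2 spots and dashed lines at the 2-fold limits. Eno3 and Pkm lie beyond the upper line and Slc2a3 and Pfkfb3 beyond the lower one, and all 7 upper glycolytic genes lie below 0.

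Few of the 33 genes differed by 2-fold between fresh Treg and naive T cells. In Treg, 3 of 33 members, Hk2, Eno2 and Eno3, were at least 2-fold above naive T cells, against 5.51% of 17595 genes. At least 2-fold lower in Treg were 0 members, against 2.04% of genes. The median member difference was 0.10, against -0.02 for all genes, and its sign turned with the scaling. Hk2 was 13.8-fold higher in Treg (3.78 ± 0.23, scanner error), Eno2 was 3.61-fold higher (1.85) with 2.28 at its second probe, and Eno3 was 3.40-fold higher (1.76). In naive T cells Hk2 and Eno2 had the lowest signals of the 4 arrays, at 0.0848 and 0.0671. The largest difference the other way was that of Pfkfb4, at -0.81, which passed 2-fold lower (1 gene) under scaling to the array median. The remaining members, among them Slc2a3 (0.81), Slc16a3 (0.73), Tpi1 (0.68) and Pdk3 (0.63), lay under 2-fold.

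**Figure D5:**
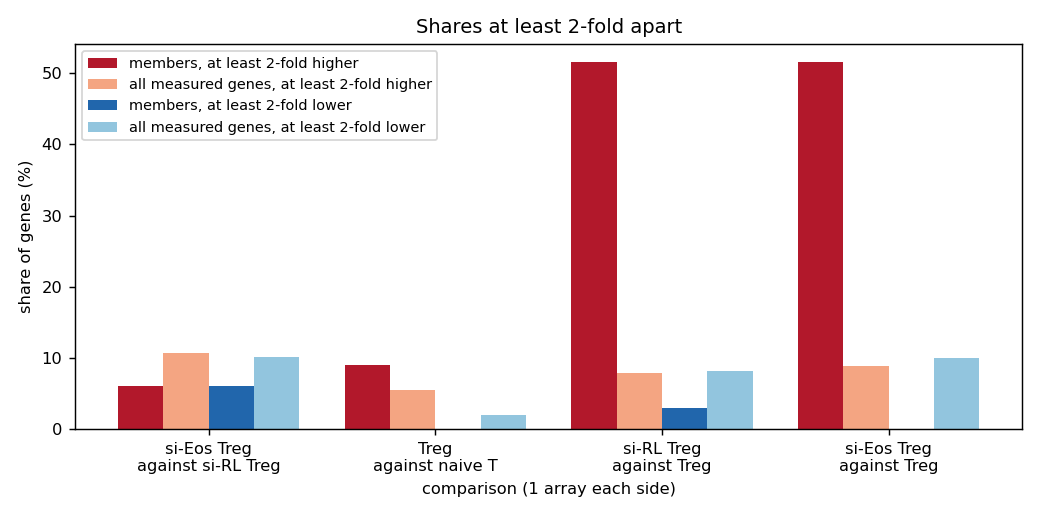
Share of genes at least 2-fold higher and at least 2-fold lower in each of the 4 comparisons, for the 33 members and for all measured genes, in percent. The members' share of higher genes is 51.5% on both cultured arrays against Treg, and between the hairpin arrays it is 6.06%, below the 10.7% of all genes.

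Another 48 genes of the same pathways were listed, tissue-restricted isoforms among them, of which 35 to 37 were measured in a comparison. At least 2-fold higher on the array labelled si-Eos than in Treg were 4 of 35 (11.4%, where 8.84% of all genes were higher) and lower were 5 (14.3%, where 10.0% were lower). On the array labelled si-RL 6 of 35 were higher (17.1%, against 7.89%) and 4 lower (11.4%, against 8.21%). Slc2a6, a less studied glucose transporter family member, was higher in both, by 2.93 on the array labelled si-Eos and 2.18 on the array labelled si-RL. Pgm1 (phosphoglucomutase, which links glycogen with glycolysis) was higher by 1.13 and 1.51, and Pgam2, the muscle mutase, by 1.68 and 2.31. Between the hairpin arrays 4 of 37 were higher and 4 lower on the array labelled si-Eos (10.8% each way, against 10.7% and 10.1% of all genes), a share near that of all genes. Pdk1, a kinase that keeps pyruvate out of mitochondria and a known HIF-1 target, had 0.785 on the array labelled si-Eos, 9.91 on the array labelled si-RL, 0.706 in Treg and 1.40 in naive T cells. Its difference of -3.66, with -2.76 at its second probe, was unlike those of Pdk2 (0.28) and Pdk3 (0.81) of the same family. Adpgk, an ADP-dependent glucokinase, was lower there by its difference of -1.77, and Bpgm and Gapdhs were higher by 1.14 and 1.31. Tigar, a phosphatase known to favour the pentose phosphate pathway, was higher by 1.28. Between Treg and naive T cells 2 of 35 were higher in Treg, Slc2a6 (1.54) and Gpd1 (1.29), and 0 were lower. Their 5.71% is near the 5.51% of all genes. Pgk2, known as the testis form of the kinase, had a difference of -4.19 from Treg on the array labelled si-Eos. It was not well above background on the array labelled si-RL, where it was at least 41.0-fold lower than in Treg.

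Of 20 listed regulators, 19 were measured. Hif1a, the oxygen-regulated subunit of HIF-1, had 21.6 on the array labelled si-Eos, 12.4 on the array labelled si-RL, 5.26 in Treg and 2.54 in naive T cells. Myc had 29.6 and 36.0 on the hairpin arrays, against 8.49 in Treg and 7.14 in naive T cells. Egln3, a prolyl hydroxylase that is itself a HIF-1 target, had 4.59 and 2.76, against 0.347 in Treg and 0.0806 in naive T cells. These 3 genes were at least 2-fold above Treg on both cultured arrays. On the array labelled si-Eos they were the only calls, 3 of 19 higher (15.8%, against 8.84% of all genes) and 0 lower (against 10.0%). On the array labelled si-RL 4 of 19 were higher (21.1%, against 7.89%), the further gene being Egln1 at 1.55. Rptor was the 1 regulator lower there, at -1.17 (5.26%, against 8.21%). Txnip, which restrains glucose uptake, had 10.2 and 23.5 on the hairpin arrays, against 15.9 in Treg and 23.6 in naive T cells. With a difference of -1.20 it was the 1 regulator lower on the array labelled si-Eos than on that labelled si-RL (5.26%, against 10.1% of all genes). Higher there were 4 of 19 (21.1%, against 10.7%): Arrdc4 (1.42), Tigar (1.28), Epas1 (1.18) and Rptor (1.15). Message levels do not show the activity of these proteins, and a link to the members was not tested. Among the promoter windows, 10 of the 14 cultured-high members (71.4%) and 16 of the other 18 (88.9%) held ACGTG or GCGTG. The first of these cores alone stood in 7 of the 14 (50%) and in 8 of the 18 (44.4%), so the order of the shares turned with the motif. Median GC content was 64.8% in the windows of the 14 and 58.7% in those of the 18, and its part was not tested.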

How the data were processed

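RNA of 4 samples was amplified linearly and labelled with Cy3, per the labels' protocols. Scanner files with linear spot intensity values were deposited. Per the file headers, the software was Agilent Feature Extraction 9.5.3.1, the intensity had its background subtracted, arrays were not scaled to each other, and probes are placed on mouse build mm8. The deposited series value table held the same intensity (median ratio 1.00, 100% of spots within 0.5%), linear and not centred, with column medians of 38.5, 31.5, 50.5 and 33.2 for si-Eos, si-RL, Treg and naive T.

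From these, log2 of the processed signal minus log2 of each array's 75th percentile over 41174 non-control probes was computed with Python 3.11.15 and numpy 2.4.6. Outlier spots (71 to 94 of 43379 per array) were left out, no spot was saturated, and spots of a probe were averaged. Names came from a RefSeq table of GRCm38.p6 by accession (24375 probes), symbol (6301) or synonym (2426), and 8072 kept the file's name. A gene counted as measured if, on each array compared, its brightest probe had the scanner's well-above-background flag. With that flag on 1 array only, "at least N-fold" divides the bright level by the dim probe's level or the dim array's lowest so marked level, whichever is higher. The counting step was tested on simulated data. The 7 alternatives were scaling to the median, quantile normalization, scaling to 9 spike-in probes, normexp (limma 3.58.1, offset 50), the mean over probes, no filter on dim probes and the value table. The members, lists and rules were chosen with earlier results of these data known, and all members were eligible to be named. The number of arrays limits the precision.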

Additional observations from a re-analysis of the deposited data

Results flagged for a closer look

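Eno3 was singled out because its differences from the same Treg array ran in opposite directions in the hairpin arrays: 1.82 on the array labelled si-Eos and -1.68 on the array labelled si-RL. With 1 array per group the difference was not tested, and it rests on a single probe.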

How the results depend on the processing

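No paired analysis was possible because each group had 1 array, and for the same reason no sample could be left out. Of 294 values of 42 member differences that reached 2-fold, followed under the 7 alternatives, 208 stayed within 0.2 of the log2 value reported, 86 moved further and 0 changed sign. Under 2-fold fell 5 of these values with spike-in scaling, 4 as the mean over probes, 1 with quantile normalization and 1 with normexp. Part of the agreement was fixed in advance. Every member was well above background on all arrays, so leaving out the filter on dim probes could move no member. The value table held the same intensity, and median scaling adds the same constant to all differences of a comparison. The count of members at least 2-fold above Treg ranged between 15 and 18 on the array labelled si-Eos and between 14 and 21 on the array labelled si-RL, and the count with both cultured arrays at least 2-fold above both fresh arrays between 12 and 15. The median for Treg against naive T turned to -0.11 under median scaling and -0.18 under normexp and was 0.37 under spike-in scaling. Median scaling gave 1 member lower in Treg, and quantile normalization 1 higher between the hairpin arrays. Against Treg, spike-in scaling gave medians of 0.85 on the array labelled si-Eos and 0.76 in that labelled si-RL, the second with 2 members lower. Normexp gave a median of 1.34 and 2 lower members on the array labelled si-RL and 1 lower on the array labelled si-Eos, and the mean over probes a median of 0.95 on the array labelled si-Eos. Spike-in scaling put the median of all genes at -0.33 and -0.34 for the si-Eos and si-RL labels against Treg and at 0.24 for Treg against naive T, with 21.3%, 20.4% and 87.2% of all called genes higher, and normexp at -0.36, -0.31 and 0.21 with 19.7%, 17.7% and 83.7%. As reported, these shares were 46.8%, 49.0% and 73.0%, and under median scaling the last was 55.2% with a median of -0.23. The members' median minus that of all genes, 1.17 on the array labelled si-Eos and 1.10 on the array labelled si-RL, cannot change under median or spike-in scaling, which add a constant per array. In the same order it was 1.51 and 1.65 under normexp and 0.91 and 0.99 as the mean over probes. The causes of these shifts were not tested. The dimmest members were Eno2 and Hk2 in naive T cells and Hk3 and Pdk2 on the other arrays. In naive T cells Eno2 and Hk2 had low signals (20.3 and 25.7 intensity units), on which their Treg minus naive T differences rest.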
